A study of Homo sapiens with 28 samples.

Results

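The effect of ONECUT2 on LNCaP cells at low oxygen was read from 4 RNA-Seq libraries, 2 with Flag-tagged ONECUT2 (H_OC2) and 2 with the empty vector (H_EV), all kept at 0.2% O2. LNCaP is an established human prostate adenocarcinoma line that depends on androgen signalling. The members are the genes with at least 1 RPKM (reads scaled by transcript length and by the mapped reads of the library) in at least 2 of these libraries and no exact 0 beside a value over 10. They numbered 12017 of the 19662 gene symbols in the table. The series holds 28 samples, of which 16 are RNA-Seq libraries. The other LNCaP RNA-Seq groups, 2 libraries with the empty vector (N_EV) and 2 with Flag-tagged ONECUT2 (N_OC2) in normoxia, entered the same model and served for comparison. The cells come from 1 line. Which of the study's ONECUT2 vectors they carried, whether the overexpression was transient or stable, and how long the hypoxia lasted are not given in the sources used here. Nothing in the labels says that libraries of a group are separate cultures, so the p-values measure only the spread between these libraries.

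ONECUT2 is a transcription factor of the onecut family, with a cut domain and a homeodomain, and is known from retinal, neuronal and hepatic development. In prostate cancer it is studied as a factor of neuroendocrine tumors, which lose androgen-driven luminal expression and gain neuronal genes. Low oxygen stabilizes the HIF alpha subunits, which with ARNT activate genes of glycolysis, angiogenesis and pH control, and the study asked how ONECUT2 and hypoxia act together in adenocarcinoma cells.

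Genes higher with ONECUT2 than with the empty vector in hypoxia included 10 of 19 immediate early, 8 of 23 p53 target and 8 of 21 histone genes. Of the metallothionein list, which includes a zinc exporter, 4 of 5 genes were higher. Of the 10 immediate early genes, 6 passed the filter only through the ONECUT2 libraries. Genes that were lower included 17 of 39 androgen-induced, 20 of 54 G2/M, 12 of 42 S phase, 11 of 37 interferon-stimulated and 6 of 17 fatty acid synthesis genes, so that in each of these latter lists most members were not called. Of 26 HIF targets 3 were called, of 21 glycolysis genes 1 and of 58 ribosomal protein genes 0. When single libraries were left out these counts fell, for some lists to 0, as given with each list. In limma on log2(RPKM + 0.1), 824 genes were higher (6.86% of those tested) and 617 were lower (5.13%) at a Benjamini-Hochberg adjusted p under 0.05, the limit for a call in the following. Together they made up 12.0% of the genes tested. The groups did not overlap in either direction for far more genes, with all ONECUT2 values above the empty vector values for 31.4% and below them for 35.3%. By a limit of a 2-fold change with an unadjusted P under 0.05, 409 genes were higher (3.40%) and 87 were lower (0.724%). Without the fold limit, 1758 of the 12017 genes tested were higher and 1665 were lower at an unadjusted P under 0.05. The unadjusted counts given with some lists stand against this background. The median log2 fold change over all genes was -0.02. Of the adjusted calls 57.2% were higher, and with upper-quartile scaling of the libraries, which moved the median to 0.04, the counts were 1065 higher and 445 lower, or 70.5% higher.

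**Figure D1:**
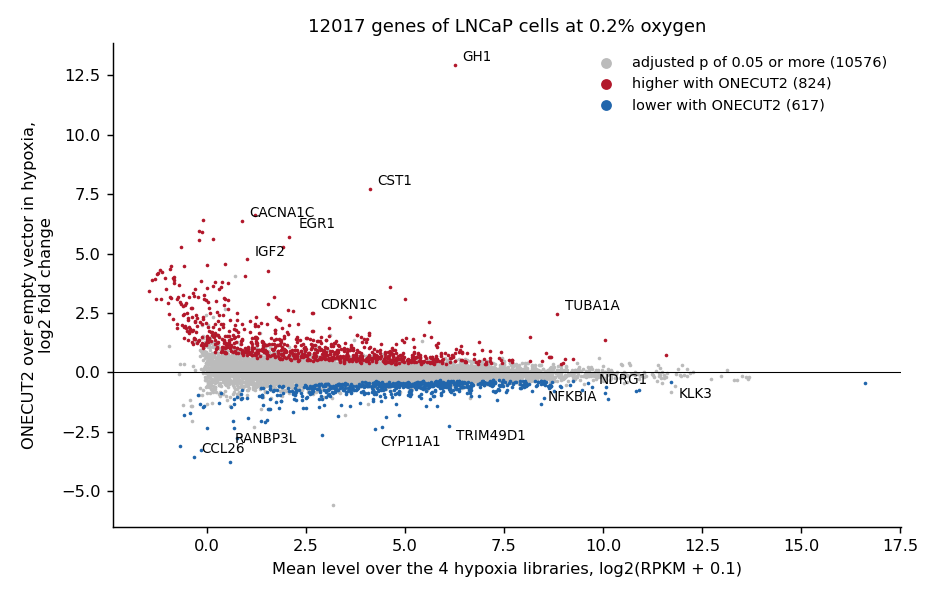
Log2 fold change of ONECUT2 over empty vector in hypoxia (y axis) against the mean level over the 4 hypoxia libraries (x axis, log2(RPKM + 0.1)) for 12017 genes, with 824 genes called higher in red and 617 called lower in blue. GH1 stands alone at 12.94, and most large increases are of genes with low mean levels.

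The filter itself favours differences among weakly expressed genes. A total of 11351 members reached 1 RPKM in all 4 libraries. Another 308 passed only through both ONECUT2 libraries, and 194 of these were called higher. Without them 630 of 11709 genes (5.38%) were called higher. In the other direction 51 members passed only through the empty vector libraries, 15 of which were called lower. Since 0.1 RPKM is added to each value, the log2 fold changes understate the change of low genes.

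The calls rested on all 4 hypoxia libraries. The number of genes called higher was 322 or 294 without empty vector replicate 1 or 2, and 75 or 225 without ONECUT2 replicate 1 or 2. For genes called lower the counts were 97, 76, 28 and 196 in the same order. Each of these fits leaves a group with 1 library, which is assumed to vary like the other groups. Of 160 genes named in the text and called, 49 kept the call in every such fit in which they passed the filter, and 102 lost it without ONECUT2 replicate 1.

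The libraries agreed closely, with Pearson correlations of 0.992 between the empty vector and 0.989 between the ONECUT2 replicates in hypoxia, computed across genes on the log scale. Relative depth, estimated from the steps between low RPKM and set to 1 for the first empty vector library, was 1.14 in the other empty vector library and 1.10 and 0.768 in the ONECUT2 libraries. LNCaP identity was checked with 12 marker genes. Of the 11 that were members, 5 were called lower with ONECUT2 and 0 higher, and the summed level of the list was 6974 and 6675 RPKM with the empty vector and 5150 and 4680 RPKM with ONECUT2, CDH1 included. KLK3, one of them, had between 2809 and 3997 RPKM in the 4 libraries. CDH1 was listed at 0 in ONECUT2 replicate 2 and between 284 and 362 RPKM in the others, and is not a member. Markers of other cells were mostly at or near 0. Of 7 fibroblast and 8 leukocyte and endothelial markers 1 each passed the filter, COL1A1 and VWF, and PTPRC and COL1A2 were listed at 0 in all 4 libraries. The summed level of the fibroblast markers was 17.1 to 18.1 RPKM with the empty vector and 25.4 to 26.3 RPKM with ONECUT2, nearly all of it COL1A1, and that of the leukocyte and endothelial markers at most 2.25 RPKM. Of 12 markers of the prostate line PC3, 3 passed the filter, 1 of which, FOSL1, rose. The part of COL1A1 and FOSL1 expressing cells in the results was not tested. In bulk libraries fewer cells of a type and less RNA per cell cannot be told apart.

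The overexpressed gene could not be used to check the labels. ONECUT2 (chr18:55102606-55158530, GRCh37) has no value in the 4 ONECUT2 libraries of the table. In hypoxia the empty vector libraries had 11.5 and 3.09 RPKM, and in normoxia 2.89 and 7.86 RPKM, with replicates far apart. Its relatives were low. ONECUT1 had 0.0553 and 0.048 RPKM with the empty vector and 0.0992 and 0.0854 RPKM with ONECUT2, and ONECUT3 went from 0.00254 RPKM and a value listed at 0 to 0.129 and 0.162 RPKM. Neither is a member. Both genes were also under 1 RPKM in every normoxia library.

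The largest increase was that of GH1 (chr17:61994560-61996199), which encodes pituitary growth hormone. It had 3.53 and 0.107 RPKM with the empty vector and 7913 and 5891 RPKM with ONECUT2 in hypoxia. The log2 fold change was 12.94 ± 1.33 (SE, adjusted p = 0.000904), and in normoxia it was 12.80, with 5374 and 5817 RPKM in the ONECUT2 libraries. Of the near-identical genes of the cluster, looked at after these values were seen, GH2 was at or under 0.145 RPKM, CSH1 at or under 0.189 RPKM and CSH2 at or under 1.03 RPKM in hypoxia. The 3′ end of the human growth hormone gene is a common polyadenylation signal in expression plasmids, including those of the pCMV6 type. Among their ONECUT2 vectors the study's methods list a pCMV6 plasmid, named without a tag. They also list lentiviral vectors, among them a vector named with Flag, the tag in the sample labels. Which vector the RNA-Seq cells carried is not given in the sources used here, and the origin of the GH1 reads was not tested.

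Secreted cystatins followed. CST1, CST2 and CST4 encode salivary type cystatins, inhibitors of cysteine proteases, and lie in a cluster on chromosome 20. CST1 (chr20:23728199-23731905) rose from 1.26 and 0.958 to 281 and 231 RPKM, a log2 fold change of 7.73 ± 0.17 (adjusted p = 1.15e-07). CST4 had 0.189 and 0.0888 RPKM with the empty vector and 25.8 and 20.7 RPKM with ONECUT2. CST2 was listed at 0 in one empty vector library and at 0.0223 RPKM in the other, against 7.25 and 6.33 RPKM. That the ONECUT2 values of all 3 genes lay above the empty vector values was a condition for naming them. CST2 and CST4 also passed the filter only through the ONECUT2 libraries. The coding sequences of the 3 genes are so alike that reads can be split between them. The neighbouring CST3, the broadly expressed cystatin C, also looked at afterwards, had 54.5 and 54.5 RPKM against 65 and 60 RPKM and was not called (adjusted p = 0.447).

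Among the other increases were genes of neurons and growth factor signalling. IGF2, a fetal growth factor, had 0.291 and 0.289 RPKM with the empty vector and 11.6 and 9.45 RPKM with ONECUT2 (log2 fold change 4.76 ± 0.18, adjusted p = 6.16e-06). CACNA1C, the pore subunit of an L-type calcium channel, had 0.0334 and 0.204 against 17.8 and 15.6 RPKM. In both genes the ONECUT2 libraries lay at least an order of magnitude above the empty vector libraries. Somatostatin receptor SSTR2 (log2 fold change 4.55), the synaptic organizers C1QL1 (4.28) and NPTX1 (4.07), and the heme protein CYGB (5.59) rose as well. CD6, a lymphocyte receptor, was listed at 0 in all 4 empty vector libraries and had 9.86 and 7.3 RPKM with ONECUT2 in hypoxia, so no fold change is given. MBD3L2, of a family of near-identical copies, had at most 0.0319 RPKM with the empty vector and 5.69 and 6.21 RPKM with ONECUT2. Of the 14 largest increases, 12 passed the filter only through the ONECUT2 libraries, so that they had to differ, and leaving out 1 of those libraries removed them from the test. GH1 and CST1, the other two, kept their call without any 1 hypoxia library.

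The decreases were smaller, and all 14 genes had higher values in the hypoxic than in the normoxic empty vector libraries. RANBP3L, a Ran-binding protein, had 20.2 and 17.1 RPKM with the empty vector and 1.92 and 4.27 RPKM with ONECUT2 (log2 fold change -2.65 ± 0.31, adjusted p = 0.00148). In normoxia it had 1.87 and 1.77 RPKM with the empty vector. CYP11A1, the mitochondrial enzyme that starts steroid hormone synthesis from cholesterol, had 40.4 and 45.9 against 4.18 and 15.7 RPKM in hypoxia, and 0.783 RPKM in both normoxic empty vector libraries. CLEC7A, the beta-glucan receptor dectin-1, had 46.5 and 47.1 against 5.24 and 17.2 RPKM. All 3 genes were lower in ONECUT2 replicate 1 than in replicate 2. That both lay below the hypoxic empty vector libraries was a condition for naming any of the 14 genes. BCL3, a nuclear IkappaB protein, fell from 48.4 and 38.7 to 10.1 and 13.9 RPKM. PLA2G2A, a secreted phospholipase, fell from 57.4 and 50 to 12.7 and 18.5 RPKM, and DPP4, a luminal cell surface peptidase, from 18.2 and 19.1 to 3.24 and 7.98 RPKM. RUNX2 (log2 fold change -1.49), BCAR3 (-1.50), NAALAD2 (-1.56) and CCDC83 (-1.65) complete the genes outside the TRIM49 group. The hypoxia and normoxia values are given side by side only, since the comparison of hypoxia with normoxia shares the hypoxic empty vector libraries.

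Of the 14 decreases, 5 (RANBP3L, TRIM49D1, PLA2G2A, CCDC83 and BCAR3) kept their call without any 1 hypoxia library. CYP11A1 and CLEC7A lost it without empty vector replicate 1 and also without replicate 2, with adjusted p up to 0.0825 and 0.0599. BCL3 and RUNX2 lost it without ONECUT2 replicate 1 (0.078 and 0.0562), DPP4 without empty vector replicate 2 (0.0541), and TRIM49, TRIM49C and TRIM48 without empty vector replicate 2 and also without ONECUT2 replicate 1 (up to 0.0826). NAALAD2 lost it in 3 of the 4 fits, all but that without ONECUT2 replicate 2 (up to 0.12). All 14 kept their direction.

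**Figure D2:**
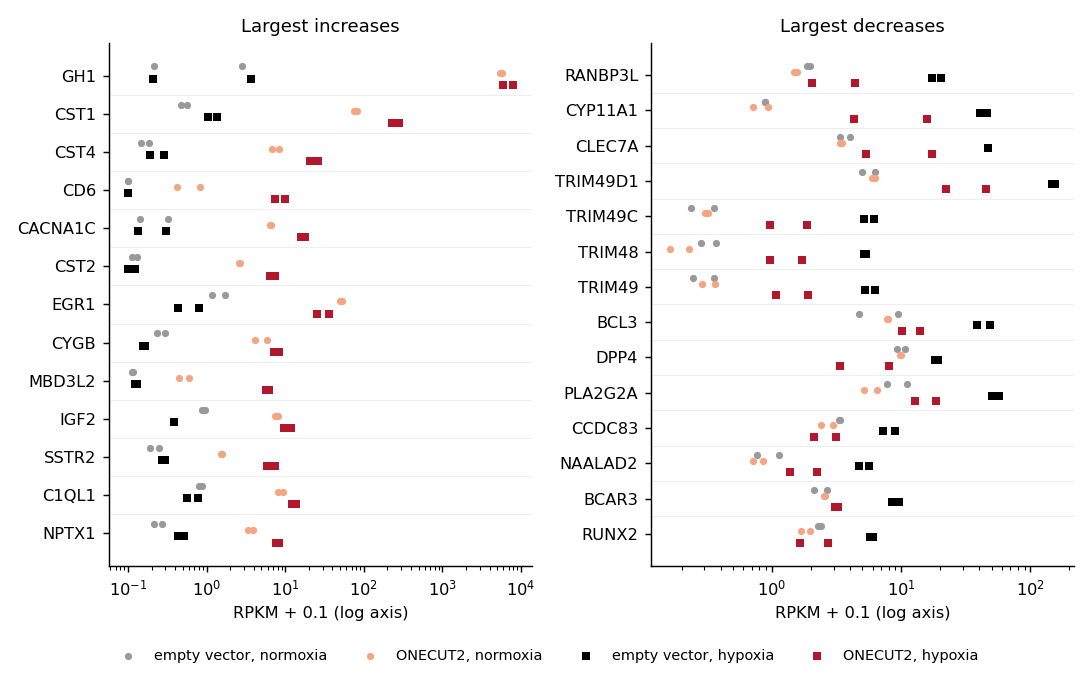
RPKM + 0.1 (log axis) in each of the 8 LNCaP libraries for 13 of the 14 genes with the largest increases (left) and the 14 with the largest decreases (right) called in hypoxia. Increases were mostly seen in both oxygen levels, as for GH1, while genes such as RANBP3L were high only in the 2 hypoxic empty vector libraries.

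The TRIM49 group holds 4 of the 14 decreases. These RING finger genes lie on chromosome 11 and are close copies of each other, so the split of reads among them is uncertain. TRIM48 (chr11:55029631-55038590, GRCh37) lies far from the others. NAALAD2 (chr11:89864683-89926062), also among the 14 decreases, lies near TRIM49C (chr11:89764274-89775193 in the same build). TRIM49D1 (chr11:89644279-89654935) had 147 and 155 RPKM in hypoxic empty vector cells and 21.9 and 45.5 RPKM with ONECUT2, a log2 fold change of -2.25 ± 0.28 (adjusted p = 0.00217). TRIM49, TRIM49C and TRIM48 had between 5.05 and 6.16 RPKM with the empty vector and between 0.858 and 1.8 RPKM with ONECUT2. In normoxia TRIM49D1 had between 4.83 and 6.19 RPKM in all 4 libraries and the other 3 genes were at or under 0.272 RPKM. The 250 bases before the RefSeq start of TRIM49 (chr11:89808576-89808825, minus strand, GRCh38.p14) and TRIM49C (chr11:90030856-90031105, plus strand) match at 249 positions. This stretch lies before the start, so it does not show how alike the transcripts are. TRIM48 and TRIM49D1 were not compared. The capital letter marks the 1 difference, G98A, counted from the 5′ end with the TRIM49 base first.
TRIM49: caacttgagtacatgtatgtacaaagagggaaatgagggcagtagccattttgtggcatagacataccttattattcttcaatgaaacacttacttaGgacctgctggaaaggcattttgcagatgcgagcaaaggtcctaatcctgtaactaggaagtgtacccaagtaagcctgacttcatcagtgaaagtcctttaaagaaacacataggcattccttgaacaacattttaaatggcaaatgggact
TRIM49C: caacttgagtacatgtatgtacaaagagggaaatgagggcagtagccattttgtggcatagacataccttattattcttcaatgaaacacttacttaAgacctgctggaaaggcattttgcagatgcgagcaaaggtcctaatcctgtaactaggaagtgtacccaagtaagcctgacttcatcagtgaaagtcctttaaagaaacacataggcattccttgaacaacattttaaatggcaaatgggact

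Immediate early genes are the first wave of transcription factors after a growth or stress signal. Of 19 members, 10 rose and 1 fell, and the median log2 fold change was 0.66, compared with -0.02 over all genes. Of those that rose, 6 passed the filter only through the ONECUT2 libraries, which leaves 4 of 13 among the others. These 6 also raise the median. Over the 13 genes tested it was 0.12 without ONECUT2 replicate 1 and 0.46 without ONECUT2 replicate 2. EGR1, a zinc finger factor of the growth response, had 0.696 and 0.34 RPKM with the empty vector and 35.6 and 25.6 RPKM with ONECUT2 (log2 fold change 5.68 ± 0.29, adjusted p = 2.31e-05). FOSL1, an AP-1 subunit, had 0.139 and 0.308 against 5.03 and 2.86 RPKM, and FOSB, of the same family, 0.537 and 0.703 against 4.04 and 3.76 RPKM. That no ONECUT2 value of these 3 genes overlapped the empty vector values was fixed by the filter. EGR3 (log2 fold change 2.19) and ATF3 (0.80) rose too, while MYC, a transcription factor of cell growth, fell from 86.8 and 88.3 to 54.5 and 54.4 RPKM (adjusted p = 0.00979). EGR1, FOSL1, FOSB and EGR3 passed the filter only through the ONECUT2 libraries, and MYC lost its call without any 1 hypoxia library. Without ONECUT2 replicate 1 the count of increases was 0 of 13 genes, and without the other libraries between 3 and 7.

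Serum response factor binds CArG boxes, and EGR1 is a known target. The CArG box was searched on both strands in the 250 bases before the RefSeq start. It was found before 1.14% of all 27305 promoters in the table, before 83 of the 9183 members it holds (0.904%), before 10 of 587 genes called higher (1.7%), and before 1 of 15 immediate early genes, EGR1. The sequence before EGR1 (chr5:138465229-138465478, plus strand, GRCh38.p14) is printed because it carries 2 such boxes, shown in capitals.
EGR1: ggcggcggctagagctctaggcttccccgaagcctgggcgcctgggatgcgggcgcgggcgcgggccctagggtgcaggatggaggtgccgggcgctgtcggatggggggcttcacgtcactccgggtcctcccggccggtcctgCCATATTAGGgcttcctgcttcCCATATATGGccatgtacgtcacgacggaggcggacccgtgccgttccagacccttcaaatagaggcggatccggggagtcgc

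Metallothioneins are small cysteine-rich proteins that hold zinc and copper. Of 10 genes in the list, which includes a zinc exporter, 5 were members and 4 of these rose. The median log2 fold change of the 5 was 0.87 in hypoxia and -0.50 in normoxia. MT1G had 2.43 and 1.94 RPKM with the empty vector and 5.3 and 4.74 RPKM with ONECUT2 in hypoxia (log2 fold change 1.17 ± 0.15, adjusted p = 0.00286), but 14.2 and 12.9 against 7.7 and 8.5 RPKM in normoxia. MT2A had 128 and 127 against 273 and 198 RPKM in hypoxia, and 277 and 237 against 147 and 183 RPKM in normoxia. For both genes the effects of ONECUT2 at the 2 oxygen levels differed (interaction adjusted p = 0.0176 and 0.0472). In normoxia MT1G fell and MT2A was not called (adjusted p = 0.0315 and 0.0593). MT1F rose by 0.98 in hypoxia on the log2 scale and the zinc exporter SLC30A1 by 0.64, and SLC30A1 rose in normoxia too, by 0.73. The count was 0 of 5 without ONECUT2 replicate 1 and at most 2 without any other hypoxia library. Paralogs of this cluster share much of their sequence, so reads could be split among them.

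Metallothionein promoters carry metal response elements, bound by the zinc sensor MTF1. Their core was searched as TGCACNC or TGCGCNC on both strands of the same 250 bases. It occurred before 33.8% of members and 24.7% of all promoters in the table, and before all 3 genes of the list that the table holds. The sequences before MT2A (chr16:56608334-56608583) and MT1X (chr16:56682220-56682469), both on the plus strand of GRCh38.p14, show how densely it occurs there, 7 and 4 times, in capitals. MT1X had a log2 fold change of 0.58 and was the member that was not called (adjusted p = 0.0906).
MT2A: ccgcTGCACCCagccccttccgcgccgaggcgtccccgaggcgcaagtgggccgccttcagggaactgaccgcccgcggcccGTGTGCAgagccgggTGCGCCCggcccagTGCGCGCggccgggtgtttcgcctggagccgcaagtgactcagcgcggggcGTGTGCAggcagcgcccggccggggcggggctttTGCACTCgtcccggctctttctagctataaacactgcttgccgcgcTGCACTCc
MT1X: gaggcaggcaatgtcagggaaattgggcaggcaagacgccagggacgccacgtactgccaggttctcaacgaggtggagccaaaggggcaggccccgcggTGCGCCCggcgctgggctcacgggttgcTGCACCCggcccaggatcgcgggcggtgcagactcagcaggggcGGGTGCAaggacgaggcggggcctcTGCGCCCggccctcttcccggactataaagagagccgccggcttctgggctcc

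Among 23 p53 targets limma called 8 higher and 0 lower, with a median of 0.32, and at an unadjusted P under 0.05 the counts were 10 and 0. TP53I3, a quinone oxidoreductase, had 3.43 and 3.26 RPKM with the empty vector and 11.3 and 11.3 RPKM with ONECUT2 (log2 fold change 1.73 ± 0.27, adjusted p = 0.00593). CDKN1A, the CDK inhibitor p21, had 108 and 100 against 208 and 181 RPKM. BTG2, an antiproliferative factor, and PLK3, a stress-responsive kinase, rose by 0.75 and 0.94 on the log2 scale. ATF3, on the immediate early list, is also part of stress signalling, and with DDIT3 (0.63) and NUPR1 (0.66) it made up the 3 of 23 integrated stress response genes that rose, beside 1, SHMT2, that fell. Of 21 chaperone and unfolded protein response genes of the endoplasmic reticulum limma called 0 at the adjusted limit, and at an unadjusted P under 0.05 it gave 1 higher and 2 lower. Without ONECUT2 replicate 1 no p53 target was called, and without the other libraries between 3 and 6.

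Of the proliferation lists, G2/M genes act in mitosis and S phase genes in DNA replication. In the G2/M list limma called 20 of 54 genes lower and 0 higher (median -0.44), against 39 and 0 at an unadjusted P under 0.05. In the S phase list it called 12 of 42 lower and 0 higher (median -0.40), against 30 and 1 at the unadjusted limit. Over all 12017 genes tested the unadjusted limit gave 1665 lower and 1758 higher. HELLS, a chromatin remodeler of replicating cells, had 9.86 and 10.8 RPKM with the empty vector and 4.66 and 5.78 RPKM with ONECUT2 (log2 fold change -0.97 ± 0.16, adjusted p = 0.00621). DTL, which targets CDT1 for destruction, GINS2 and MCM3, parts of the replicative helicase, fell by 0.84, 0.79 and 0.59 on the log2 scale. GTSE1, ANLN, ECT2 and CENPA, which act in mitosis and cytokinesis, fell by between 0.57 and 0.69. CDKN1C, the CDK inhibitor p57, rose from 2.47 and 2.68 to 15 and 15 RPKM (log2 fold change 2.50 ± 0.14, adjusted p = 2.95e-05) and kept its call without any 1 hypoxia library. E2F1, the S phase factor, fell from 14.7 and 15.4 to 7.94 and 8.83 RPKM. Both genes were named from a separate list of G1 cyclins, CDK inhibitors and related genes. Of its 19 members 2 rose, 2 fell and 15 were not called, with a median of -0.18. The CDK inhibitors CDKN1B, CDKN2A, CDKN2B, CDKN2C and CDKN2D were among those not called. The medians of the G2/M and S phase lists were also below 0 in normoxia, at -0.37 for G2/M and -0.31 for S phase. The median of the G2/M list stayed between -0.44 and -0.42 without any 1 hypoxia library, but at most 1 of its genes was then called, and of the S phase genes between 0 and 5.

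Histones package DNA, and most of their genes are expressed in S phase. Of 21 members of the histone list 8 rose and 1, the variant H2AFZ, fell. HIST1H2AC had 62.7 and 67.5 RPKM with the empty vector and 124 and 109 RPKM with ONECUT2 (adjusted p = 0.00208). HIST1H2BD and the replication-independent variants H3F3B and H3F3A rose by 0.84, 0.82 and 0.63 on the log2 scale. Canonical histone RNA lacks a poly(A) tail and these libraries were made from polyadenylated RNA, and histone genes are near-identical, so both limit what these values count. The number that rose was 1 without ONECUT2 replicate 1 and 5 without each of the other hypoxia libraries.

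Androgen-induced genes are the readout of hormone signalling in prostate cells. Of 39 members 17 fell, 1 rose and 21 were not called, with a median log2 fold change of -0.41 in hypoxia and -0.03 in normoxia. SLC45A3, the prostate marker prostein, had 95.5 and 109 RPKM with the empty vector and 56.4 and 53.3 RPKM with ONECUT2 (log2 fold change -0.89 ± 0.11, adjusted p = 0.00209) and kept its call without any 1 library. KLK3, which encodes PSA, had 3997 and 3718 against 3032 and 2809 RPKM (-0.40), and KLK2 1359 and 1302 against 868 and 888 RPKM (-0.60). TMPRSS2 fell by 0.55 on the log2 scale. The ONECUT2 values of these 4 genes were all below the empty vector values, as they were for 35.3% of all genes tested. KLK3, KLK2 and TMPRSS2 lost their calls without any 1 hypoxia library. KCNN2 (-1.19), ELOVL5 (-0.86) and STK39 (-0.77) fell as well, while STEAP4, named after its values were seen, was the 1 gene called higher. It had 0.555 and 0.445 against 1.48 and 1.16 RPKM and passed the filter only through the ONECUT2 libraries, and of the other 38 members 0 were called higher. Among 12 androgen-repressed genes 2 rose, UGT2B15 (0.64) and LRRN1 (0.77), and 2 fell, TNFSF10 (-1.38) and CAMK2N1 (-0.997). Depending on the library left out, between 1 and 6 androgen-induced genes were called lower, with medians between -0.45 and -0.38.

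Luminal cells of the prostate secrete, and basal cells line the base of the gland. Of 18 luminal genes limma called 6 lower and 0 higher, against 10 and 0 at an unadjusted P under 0.05, with a median of -0.37, among them DPP4, STEAP1 (-0.63) and GATA2 (-0.53). Between 1 and 4 luminal genes were called lower when 1 hypoxia library was left out. Of 8 basal genes 2 were called higher and 2 lower, and at most 1 in each direction when a library was left out. NGFR, the p75 neurotrophin receptor, had a value listed at 0 and 0.00564 RPKM with the empty vector and 3.6 and 4.1 RPKM with ONECUT2 (log2 fold change 5.26 ± 0.25, adjusted p = 1.47e-05), and SNAI2 rose by 0.77 on the log2 scale. Keratin KRT14 (-1.06) and S100A2 (-0.79) fell. NGFR passed the filter only through the ONECUT2 libraries, so it had to differ, and SNAI2 and S100A2 lost theirs without any 1 hypoxia library.

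Neuroendocrine genes were for the most part too low to test. Of 35 markers and factors 11 were members, 3 rose and 1 fell. TUBB3, the neuronal beta tubulin, had 18.7 and 20.7 RPKM with the empty vector and 59.3 and 49.6 RPKM with ONECUT2 (log2 fold change 1.46 ± 0.23, adjusted p = 0.00589). STMN1, a microtubule regulator, rose by 0.64 and the X-linked zinc finger gene ZNF711 by 0.73, from 2.3 and 2.35 to 4.31 and 3.59 RPKM, while the mitotic kinase AURKA fell by 0.56. Of these 4 genes TUBB3 lost its call without ONECUT2 replicate 1, and the other 3 lost theirs without any 1 hypoxia library. Enolase ENO2 had 68.3 and 57.8 against 80.5 and 66.7 RPKM, with overlapping groups, and PEG10 22.8 and 24.8 against 28.6 and 36.2 RPKM (adjusted p = 0.692 and 0.0758). SYP and MYT1 had log2 fold changes of 0.52 and 0.39 and were not called, and NCAM1 had 0.532 and 0.541 against 1.56 and 1.01 RPKM (adjusted p = 0.0593). CHGA, INSM1, MYT1L, FOXA2 and SRRM4 stayed at or under 0.143 RPKM in all 4 hypoxia libraries and are not members.

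The pan-NET genes are those that the study selected in neuroendocrine tumors and cell lines of other data. Of 87 in the list 29 were members, of which limma called 7 higher and 0 lower (15 and 0 at an unadjusted P under 0.05). Since 9 of the 29 passed only through the ONECUT2 libraries, among them 4 that rose, the others hold 3 of 20. RGS16, a regulator of G protein signalling, had 0.436 and 0.498 RPKM with the empty vector and 4.08 and 3.07 RPKM with ONECUT2 (log2 fold change 2.69 ± 0.23, adjusted p = 0.000346). FXYD6, a regulator of the sodium pump, had 0.231 and 0.163 against 4.55 and 2.48 RPKM. KIAA1211 and the neuronal adaptor subunit AP3B2 rose by 1.36 and 1.57 on the log2 scale. RGS16, FXYD6 and AP3B2 passed only through the ONECUT2 libraries. KIAA1211 kept its call without any 1 hypoxia library, and the number that rose was 1 without either ONECUT2 library and 4 and 3 without empty vector replicates 1 and 2. Of 24 neuronal and axon guidance members 6 rose, among them SLIT1 (2.70), a repulsive guidance ligand, and 5 fell, among them SEMA3C (-0.93), a secreted semaphorin, and NCAM2 (-0.53), an adhesion molecule. SLIT1 passed the filter only through the ONECUT2 libraries, as did 2 other members. Without 1 hypoxia library between 0 and 2 genes of the list were called higher and between 0 and 3 lower.

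Of 26 HIF targets 1 rose and 2 fell, near the shares over all genes, with a median of -0.03. KDM3A, a histone demethylase, rose from 62.4 and 54.9 to 94 and 95.4 RPKM (adjusted p = 0.00672). NDRG1 fell from 1089 and 997 to 633 and 716 RPKM and INSIG2 from 65 and 56.7 to 33.4 and 38 RPKM. NDRG1 lost its call without any 1 hypoxia library (adjusted p between 0.0513 and 0.161), KDM3A in all of these fits but that without empty vector replicate 1, and INSIG2 without empty vector replicate 1 or ONECUT2 replicate 1. VEGFA, the angiogenic factor, had 445 and 370 against 459 and 420 RPKM and CA9, a carbonic anhydrase, 5.38 and 3.56 against 3.85 and 3.05 RPKM, with overlapping groups and adjusted p of 0.535 and 0.649. ADM and ANGPTL4 did not pass the filter. Of the subunits, HIF1A had 221 and 235 against 185 and 225 RPKM and EPAS1 5.21 and 4.41 against 3.84 and 4.19 RPKM, and neither was called (adjusted p = 0.46 and 0.619). SMAD3, a TGF-beta signal transducer that the study examined together with ONECUT2, had 8.45 and 7.49 against 13.4 and 10.8 RPKM (log2 fold change 0.59 ± 0.14, adjusted p = 0.032). It lost its call without any 1 of the 4 hypoxia libraries, with adjusted p between 0.0505 and 0.258. In glycolysis GPI, the phosphoglucose isomerase, rose by 0.56 but lost its call without any 1 hypoxia library, and the other 20 genes were not called.

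NF-kappaB drives cytokine genes, and interferon-stimulated genes act in antiviral defence. Of 12 cytokine and NF-kappaB genes 6 were called lower and 1 higher. NFKBIA, the inhibitor IkappaB alpha, had 557 and 537 RPKM with the empty vector and 176 and 263 RPKM with ONECUT2 (log2 fold change -1.34 ± 0.18, adjusted p = 0.00327) and kept its call without any 1 library. BIRC3, a ubiquitin ligase of the pathway, and the chemokine CCL2 fell by 0.88 and 1.71, and RELB, a subunit, rose by 1.52 on the log2 scale. CCL2 passed the filter only through the empty vector libraries and RELB only through the ONECUT2 libraries, and of the other 11 members 0 were called higher. Of 37 interferon-stimulated genes 11 fell and 2 rose. IFIT2 had 29.7 and 28.2 against 15.4 and 14 RPKM, and IFIT1 35.5 and 37.7 against 16.2 and 19.4 RPKM, both called without any 1 library. IFI44L (-1.45) and IFITM1 (-0.81) fell, while the transcription factor IRF1, named after its values were seen, rose by 1.15. Between 3 and 6 interferon-stimulated genes and between 1 and 2 NF-kappaB genes were called lower when 1 hypoxia library was left out.

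Fatty acid and sterol synthesis are driven by the SREBP factors. Of 17 fatty acid genes limma called 6 lower and 0 higher, against 11 and 0 at an unadjusted P under 0.05, with a median of -0.45 in hypoxia and 0.01 in normoxia. FASN, the fatty acid synthase, had 169 and 158 RPKM with the empty vector and 76.4 and 89.7 RPKM with ONECUT2 (log2 fold change -0.98 ± 0.18, adjusted p = 0.0106), and SCD, the stearoyl desaturase, 306 and 293 against 181 and 197 RPKM. The acyl-CoA synthetase ACSL3 fell by 0.58. Of 24 sterol genes 7 fell, among them EBP (-0.42) and ACAT2 (-0.77), and 2 rose, among them TM7SF2 (0.90). FASN lost its call without empty vector replicate 1 or ONECUT2 replicate 1, and the list then held 3 and 0 calls, against 2 and 5 without the other replicates. The counts of sterol genes were at most 1 in each of these fits.

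Of 50 respiratory chain subunits 2 fell, NDUFB10 and ATP5A1, each by 0.36 on the log2 scale. The share, 4%, was near the 5.13% called lower over all genes. Of 58 cytosolic ribosomal protein genes 0 were called, with a median of -0.08, while 1 and 2 were higher and lower at an unadjusted P under 0.05, and RPS24 had 4559 and 4857 against 4983 and 4317 RPKM. Of 26 ribosome biogenesis genes 6 fell, with PPAN (-0.72), MYC, DKC1 (-0.47) and NOP16 (-0.62) among them, but at most 1 was called when a hypoxia library was left out, and MYC and DKC1 lost their calls in all 4 such fits. Of 19 NRF2 targets OSGIN1 (1.07) and ferritin FTH1 (0.72) were among 3 that rose, and AKR1C1 (-1.13) and AKR1C2 (-1.12), near-identical reductases, were the 2 that fell. Of 14 heat shock genes HSP90AA1 rose by 0.36 and HSPB1 fell by 0.46, near the shares over all genes. HSPA8 was listed at 0 in both ONECUT2 libraries and had 1869 and 2124 RPKM with the empty vector, and like 20 other genes with such values it was not tested. Without 1 hypoxia library at most 1 NRF2 target and 0 respiratory chain and heat shock genes were called.

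Of lists on cell shape and signalling, the mesenchymal one held 12 members, of which 3 rose, among them the EMT factor SNAI1 (1.25), and 2 fell, among them fibronectin FN1 (-0.60). Of 22 epithelial genes EPCAM rose by 0.37, and keratin KRT19 and cingulin CGN fell by 0.86 and 0.51. These are 4.55% higher and 9.09% lower, against 6.86% and 5.13% over all genes. Of 23 TGF-beta genes SMAD3 and BMP7 (1.91) rose, 8.7% against 6.86% over all genes. Among the 21 that did not pass only through the ONECUT2 libraries the count was 1. In the Notch pathway the ligand DLL1 (1.14) and receptor NOTCH1 (0.51) rose, and the ligand JAG1 (-0.84) and the DNA-binding factor RBPJ (-0.47) fell, out of 14. Of 21 polycomb and DNA methylation genes 3 rose, among them CBX8 and TET1, by 0.60 and 1.10 on the log2 scale, and HELLS and DNMT1 fell. Of 10 endodermal and hepatic members, a group in which onecut factors are active in development, GATA6 rose by 0.81 and 9 were not called. BMP7, DLL1 and TET1 passed the filter only through the ONECUT2 libraries. When 1 hypoxia library was left out, at most 2 genes in each direction were called in each of these 6 lists.

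**Figure D3:**
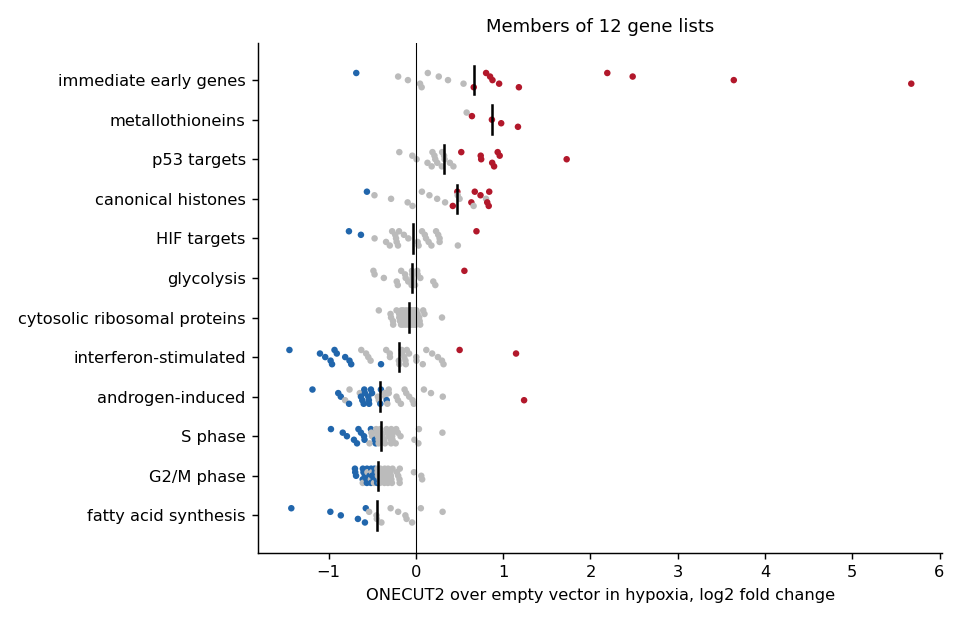
Log2 fold change of ONECUT2 over empty vector in hypoxia for each member of 12 gene lists, in red where called higher, in blue where called lower and in grey otherwise, with the median as a black line. Members of the G2/M and S phase lists lie almost all below 0, around medians of -0.44 and -0.40, and ribosomal proteins around -0.08.

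The effects at the 2 oxygen levels were compared within the same model. In normoxia 444 genes were called higher (3.69%) and 235 lower (1.96%). Of the genes called in hypoxia, 264 were also called higher and 52 also lower in normoxia, while 10 were called in opposite directions. These contrasts share no library. Across 12017 genes the log2 fold changes had a Pearson correlation of 0.545, a description over genes that are not independent. The difference between the effects passed an adjusted p of 0.05 for 32 genes (0.266%), 16 with a more positive and 16 with a more negative effect in hypoxia, and 2057 genes had an unadjusted P under 0.05. A call in hypoxia alone is thus no test of a difference between the oxygen levels. The count of 32 moved most of all with the library left out, to 271 without normoxic empty vector replicate 1, 49 without normoxic ONECUT2 replicate 2, 2 without normoxic ONECUT2 replicate 1, 1 without hypoxic ONECUT2 replicate 1, 19 without hypoxic ONECUT2 replicate 2, and 9 and 8 without hypoxic empty vector replicates 1 and 2.

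Of the 28 genes with the largest changes, 5 differed between the oxygen levels, among them MBD3L2, IGF2 and BCAR3. Over all genes tested the share was 0.266%. The 28 were chosen by their effect in hypoxia, which is part of this difference, so the selection favours a difference among them. MBD3L2, IGF2 and CD6 passed the filter only through the hypoxic ONECUT2 libraries. CD6 had at most 0.733 RPKM with ONECUT2 in normoxia, and since it was listed at 0 in all empty vector libraries, no difference of fold changes is given for it. MBD3L2 had at most 0.497 RPKM with ONECUT2 in normoxia (interaction adjusted p = 0.0265). IGF2 rose at both oxygen levels, by 4.76 in hypoxia and 3.07 in normoxia on the log2 scale. BCAR3 fell by 1.50 in hypoxia and had a log2 fold change of 0.10 in normoxia. For CST1, GH1 and EGR1, which rose at both oxygen levels, the difference did not pass (adjusted p = 0.366, 0.978 and 0.561). RANBP3L, TRIM49D1 and CYP11A1 also did not pass it (0.0682, 0.054 and 0.158), with log2 fold changes of -0.35, 0.13 and -0.12 in normoxia.

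**Figure D4:**
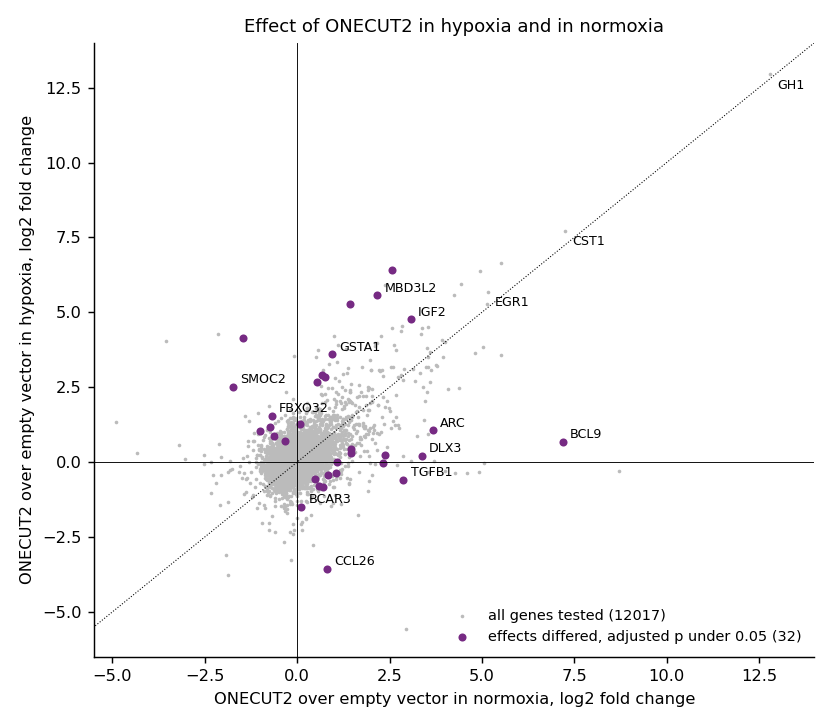
Log2 fold change of ONECUT2 over empty vector in hypoxia (y axis) against normoxia (x axis) for 12017 genes, with the 32 genes whose effects differed at an adjusted p under 0.05 in purple and the dotted line of equal effects. GH1, CST1 and EGR1 lie near that line, while MBD3L2 lies above it and CCL26 below.

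ATCAAT and ATCGAT, core letters that onecut factors bind, were searched on both strands of the 250 bases before the RefSeq start. ATCAAT occurred before 5.69% of all promoters in the table, before 2.76% of the 9183 members it holds, before 2.73% of 587 genes called higher and before 1.42% of 492 called lower. ATCGAT occurred before 0.674%, 0.708%, 1.02% and 0.61% of these. Of the 14 largest increases 4 were in the table and of the 14 largest decreases 13, and none of them had either sequence. The hypoxia response core ACGTG, searched likewise, occurred before 18.7% of all promoters, 17.7% of the genes called higher, 23.4% of those called lower and 23.8% of members. These are counts of letters in a window, and none of them marks a bound site.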

How the data were processed

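RNA-Seq was analysed in 8 LNCaP libraries, 2 in each of 4 groups, from 1 deposited table of gene-level RPKM. Per the study's methods and processing notes, the authors made stranded libraries from polyadenylated RNA, trimmed the reads, aligned them to hg19 with STAR 2.4.2a and computed RPKM with Cufflinks 2.1.1 on GENCODE gene models. Read counts are not in this table, so no count model was used, and the RPKM carry no total depth. Relative depth was estimated from the steps between low values.

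Values were taken as log2(RPKM + 0.1) and fitted with limma 3.58.1 (R 4.3.3) with a mean-variance trend over all 8 libraries as 4 groups, and p-values were adjusted by Benjamini-Hochberg over all 12017 genes tested. All tests are two-sided. The residual spread is thus shared with the normoxic libraries. Contrasts were ONECUT2 over empty vector in hypoxia, the same in normoxia, and their difference. Genes with fewer than 2 hypoxia libraries at 1 RPKM (7623), with an exact 0 beside a value over 10 (21) or with a missing value (1) were left out. An exact rank test of 2 against 2 libraries cannot go below a two-sided p of 0.33. Genes named were the 14 largest increases and decreases among non-overlapping calls with at least 5 RPKM in the higher group, up to 4 genes with the smallest P in each of 38 lists, and a fixed set of hypoxia, androgen and neuroendocrine genes. Others are said to be chosen afterwards. The members and lists were chosen with earlier results of these data known. Columns without a sample numbered 0. Promoter sequences are RefSeq, GRCh38.p14, matched by symbol for 9183 members, and gene positions are GRCh37. On data simulated for the hypoxia contrast over the 12017 genes, the fit called 76 of 102 genes changed by 1 on the log2 scale, 96 of 98 changed by 2, and 10 unchanged genes. Alternatives were the pseudocount, the filter, the scaling, the libraries in the fit, the trend, the replicate block, and leaving out each library. A few of the genes so chosen are not reported here.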

Additional observations from a re-analysis of the deposited data

Results flagged for a closer look

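The effect of ONECUT2 differed between hypoxia and normoxia for 15 genes named here, by the limma test of the difference between both log2 fold changes. The value given for each is the hypoxia minus the normoxia effect on the log2 scale, with its adjusted p. Of the 14 largest increases, MBD3L2 differed by 3.39 (0.0265) and IGF2 by 1.69 (0.0448), and of the decreases BCAR3 by -1.60 (0.0433). Of the listed genes, RGS16 differed by 2.15 (0.0463), MT1G by 1.90 (0.0176) and MT2A by 1.51 (0.0472). MBD3L2, IGF2 and RGS16 passed the filter only through the hypoxic ONECUT2 libraries. CD6, listed at 0 in all empty vector libraries, is left out, since its difference depends on the pseudocount.

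The other 9 were picked after their values were seen. KITLG, the ligand of the receptor KIT, differed by 2.08 (0.0433), with 0.344 and 0.478 RPKM in hypoxic empty vector cells and 3.71 and 3.31 RPKM with ONECUT2. SOX4, a developmental transcription factor, differed by 1.21 (0.0369), with 77.1 and 72.6 against 188 and 176 RPKM in hypoxia and between 19 and 23.9 RPKM in all normoxia libraries. IGF1R, the receptor of insulin-like growth factors, differed by -1.52 (0.0309), as it fell in hypoxia and rose in normoxia, by log2 fold changes of -0.83 and 0.69. CCL26, a chemokine, differed by -4.36 (0.0176), with 2.2 and 3.12 against 0.188 and 0.0841 RPKM in hypoxia. KITLG passed the filter only through the hypoxic ONECUT2 libraries and CCL26 only through the hypoxic empty vector libraries, so their effects in hypoxia had to be large.

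FBXO32, a ubiquitin ligase subunit of muscle atrophy, differed by 2.23 (0.016) and SMOC2, a matricellular protein, by 4.25 (0.016). Both rose in hypoxia and fell in normoxia, and SMOC2 passed the filter only through the hypoxic ONECUT2 libraries. UBR4, a large ubiquitin ligase, differed by 1.02 (0.0368). The glutathione transferases GSTA1 and GSTA2, whose sequences are so alike that reads can be split between them, differed by 2.66 (0.016) and 2.21 (0.0309). GSTA1 had 7.03 and 6.87 RPKM with the empty vector and 100.1 and 73 RPKM with ONECUT2 in hypoxia, against 14.1 and 16.7 and 24.8 and 35.2 RPKM in normoxia.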

How the results depend on the processing

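Against 824 genes called higher and 617 called lower, a filter at 5 RPKM gave 476 higher, and a fit of the 4 hypoxia libraries alone gave 1355 and 1364. Leaving out 1 library gave 75 to 1080 higher and 28 to 911 lower. At a fold over 2 and unadjusted P, the counts of 409 and 87 became 222 and 51 with a pseudocount of 1, 878 and 145 with no filter, 129 and 51 with the 5 RPKM filter, and 179 to 450 and 74 to 140 without 1 library. The 32 genes whose effects differed between oxygen levels became 98 with a pseudocount of 1, 4 with no filter, 70 without the trend, 55 after genes with an exact 0 in any of the 8 libraries were left out (chosen after seeing the data), and 1 to 271 without 1 library. The cause of these moves was not tested, beyond the fewer libraries or genes in each fit. With replicate number as a block the counts were 700 higher, 475 lower and 11 differing. Same-numbered libraries deviated together with a correlation of 0.185 in hypoxia and -0.0101 in normoxia, 2 pairs do not settle a pairing, and the labels name none. Directions reversed only for genes that were not called. Without 1 library CALR ranged from -0.197 to 0.0112, HSP90B1 from -0.0336 to 0.170, RPS24 from -0.124 to 0.0825, VWF from -0.532 to 0.265 and VEGFA from -0.0173 to 0.248. With upper-quartile scaling TUBB was 8e-04 and RPS24 was 0.0393. With 2 libraries a group and RPKM in place of counts, the depth behind low values is unknown.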

Other observations

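Genes outside the lists, all chosen after their values were seen, added to the picture. Among tubulins, the building blocks of microtubules, TUBA1A had 203 and 188 RPKM with the empty vector and 1175 and 995 RPKM with ONECUT2 in hypoxia (log2 fold change 2.47 ± 0.25, limma adjusted p = 0.000791), and TUBB2A rose by 0.95 on the log2 scale. TUBA3D and TUBA3E, near-identical copies, had log2 fold changes of -1.40 and -1.15, and TUBA4A of -0.55. The abundant TUBA1B, TUBA1C and TUBB were not called (adjusted p = 0.0727, 0.0977 and 0.754). TUBA1A and TUBA3D kept their calls without any 1 hypoxia library.

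Thymosin TMSB4X, which binds actin monomers, had 23.5 and 23.2 RPKM against 111 and 93.4 RPKM. GADD45B, a stress-induced growth arrest gene, had 5.37 and 5.28 against 30.6 and 24.5 RPKM. SLC22A17, a lipocalin receptor, had 12.8 and 9.15 against 103 and 85.7 RPKM, and its log2 fold change was 3.10 in hypoxia and 3.13 in normoxia. The fibroblast growth factor receptors FGFR2 and FGFR1 rose by 2.04 and 1.39 on the log2 scale, and TXNIP, an inhibitor of thioredoxin, by 1.48. Of highly expressed genes, AMD1, which makes the substrate for polyamine synthesis, fell from 1626 and 1671 to 648 and 891 RPKM, ADAMTS1, a secreted protease, from 520 and 530 to 241 and 263 RPKM, and the protease inhibitor SLPI from 87.4 and 95.5 to 25.7 and 44.3 RPKM. AMD1 lost its call without ONECUT2 replicate 1, and SLPI without all but ONECUT2 replicate 2.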
